A study of Mus musculus with 4 samples.

Results

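The miR-29 family of the mouse comprises miR-29a, miR-29b and miR-29c (mmu-miR-29a, mmu-miR-29b and mmu-miR-29c on the array), 3 of the 577 miRNA names on an Agilent miRNA array hybridised with RNA from A3-1 mouse embryonic stem cells. The members were chosen by name, and the family was picked with the differences between the groups below already in view. These differences are therefore given as a description, without a test. All 3 members were well above background on all 4 arrays and were among the 231 miRNAs tested across the array.

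A3-1 is a single embryonic stem cell line, cultured in medium with serum and the cytokine LIF, which holds the cells in the undifferentiated state. The cells received an siRNA against GFP, the control, or an siRNA against Lin28a, and total RNA was purified 48 h later. LIN28A binds RNA and is best known for keeping let-7 precursors from being processed. Its own mRNA is not measured on a miRNA array, so the depth of the knockdown is unknown here. Each group had 2 replicates with 1 single-colour array each, and since nothing states that they came from separate cultures, their spread may be technical. With so few arrays, every value has limited precision.

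A miRNA finds its targets mainly through the seed, bases 2 to 8 from its 5′ end, so miRNAs with 1 seed share many targets. The miR-29 family is known to repress the DNA methyltransferases DNMT3A and DNMT3B as well as collagens and other matrix genes, and its level is known to be low in undifferentiated cells and higher in many mature tissues. The family is transcribed as a pair of hairpins at each of 2 loci, so that miR-29a and miR-29c each come from 1 locus while an identical miR-29b comes from both.

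The mature guide strands show what the members share and where they part. The sequences are from RefSeq (build GRCm38.p6, in which all 3 members were matched by name), written 5′ to 3′ with the seed in capitals.
miR-29a: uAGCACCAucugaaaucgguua
miR-29b: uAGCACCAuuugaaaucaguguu
miR-29c: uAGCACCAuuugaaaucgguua
All 3 carry the seed AGCACCA, and of 1679 mature mouse miRNA names in that table these 3 alone had it. With positions counted from 1 at the 5′ end and miR-29c as the reference, miR-29a differed by the single substitution U10C. miR-29b shared its first 17 bases with miR-29c, differed by G18A, U21G and A22U, and was 1 base longer, at 23 bases against 22.

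The precursors show the 2 loci and where the guide lies in each. In the following hairpins, also from RefSeq, the guide strand is in capitals and lies in the 3′ arm of each.
Mir29a: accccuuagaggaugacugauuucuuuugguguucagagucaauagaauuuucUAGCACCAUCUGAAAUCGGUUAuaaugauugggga
Mir29b-1: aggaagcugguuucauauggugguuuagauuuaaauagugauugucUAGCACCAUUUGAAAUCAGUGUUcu
Mir29b-2: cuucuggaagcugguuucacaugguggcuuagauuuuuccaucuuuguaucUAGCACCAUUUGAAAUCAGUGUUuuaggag
Mir29c: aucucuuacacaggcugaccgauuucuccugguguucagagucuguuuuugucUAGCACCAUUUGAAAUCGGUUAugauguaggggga
Mir29a lies at chr6:31062660-31062747 and Mir29b-1 at chr6:31063023-31063093, both on the minus strand and 275 bases apart. Mir29b-2 lies at chr1:195037040-195037120 and Mir29c at chr1:195037547-195037634, both on the plus strand and 426 bases apart. The chromosome 1 pair lies within the long non-coding RNA gene A330023F24Rik, while no other gene of the RefSeq table overlaps the chromosome 6 pair. Whether the chromosome 1 pair is exonic or intronic was not determined here.

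LIN28 is known to bind GGAG in the loop of let-7 precursors. The letters GGAG, searched on the transcribed strand only, occurred 0 times in Mir29a, Mir29b-1 and Mir29c and 1 time in Mir29b-2, where they are the last 4 bases of the hairpin. None of the 4 hairpins had them between the 2 arms. Of 1005 mouse hairpins in the table, 44.5% held GGAG, and a match or its lack says nothing by itself about binding.

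The cells carried the miRNAs that define embryonic stem cells. All 8 markers of the miR-290 cluster were detected on every array, with summed total gene signals of 59874 to 60155 with siGFP and 66496 to 68970 with siLin28a. Across the array, 32.5% and 32.9% of spots were well above background with siGFP, against 34.5% and 38.8% with siLin28a. The signal used to scale each array was 226 and 220 with siGFP against 248 and 265 with siLin28a. Unscaled signals were thus brighter on both siLin28a arrays. In RNA from a whole culture, a change in the number of cells of a type cannot be told apart from a change in the RNA per cell.

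All 3 members had higher signals on both siLin28a arrays than on either siGFP array, and miR-29c differed more than its relatives. The total gene signal, which sums the signal of a miRNA's probes and is not scaled between arrays, was 66.9 and 71.1 for miR-29c with siGFP and 121 and 122 with siLin28a. The signals of miR-29b were 83.1 and 78.4 against 119 and 112. Those of miR-29a were 51.8 and 48.7 against 67.5 and 72.2. No siLin28a value of any member lay within the range of its siGFP values. The ratio of the group means was 1.76 for miR-29c, 1.43 for miR-29b and 1.39 for miR-29a, before any correction for the brighter siLin28a arrays.

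With each array divided by its scaling signal and taken to log2, the same order held. miR-29c, which comes from the chromosome 1 locus alone, had levels of -2.23 and -2.17 with siGFP and -1.55 and -1.65 with siLin28a. The difference was 0.60 on the log2 scale (SE 0.12 from limma, n = 2 per group), a 1.52-fold higher mean. The nearest arrays of the groups were 0.52 apart, while the SD between replicates was 0.04 with siGFP and 0.08 with siLin28a. For miR-29c, the difference between groups was several times the spread between replicates.

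miR-29b, encoded at both loci, had log2 levels of -2.06 and -2.19 with siGFP and -1.74 and -1.94 with siLin28a. Its difference was 0.29 (SE 0.14, n = 2 per group), or 1.22-fold. Its gap between the nearest arrays was 0.12, no larger than the SD of 0.14 between the siLin28a replicates. With the replicates taken as unpaired, the groups of miR-29b therefore did not overlap but lay within the reach of the replicate spread.

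miR-29a, from the chromosome 6 locus alone, had log2 levels of -2.65 and -2.78 with siGFP and -2.45 and -2.48 with siLin28a. Its difference was 0.25 (SE 0.09, n = 2 per group), or 1.19-fold, with a gap of 0.17 between the nearest arrays and SDs of 0.09 and 0.02. Levels of different members come from different probes and are not compared with each other here.

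**Figure D1:**
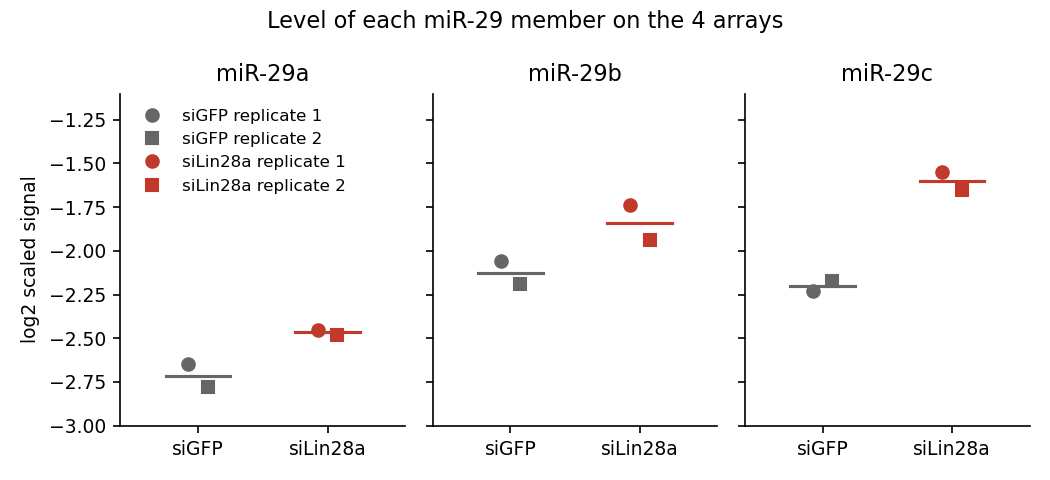
The log2 scaled signal of miR-29a, miR-29b and miR-29c is plotted for each array, with circles for replicate 1, squares for replicate 2 and a line at each group's mean. Both siLin28a arrays lie above both siGFP arrays for each member, with the widest gap, 0.52, for miR-29c; heights are not comparable between members.

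In the test across all 231 miRNAs (limma, Benjamini-Hochberg adjusted p below 0.05), 0 of the 3 members were called. The calls were let-7a and let-7f, both higher with siLin28a, which is 0.866% of the miRNAs tested, against 0% called lower. Both were kept through the siLin28a arrays alone. Their siGFP values were all set to the floor given below, a log2 level of -3.40. Their direction was thereby fixed, and the small SE behind each call rests on a siGFP group without a measured spread. At an unadjusted limma p below 0.05 there were 57 miRNAs. All 3 members were higher with groups that did not overlap, as were 30.7% of all tested miRNAs, and a further 30.7% were lower without overlap. Nothing is read from this count, since the family was picked from the same comparison.

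Differences were ranked only among the 180 tested miRNAs with no probe value at the floor, the log2 level of -3.40 to which dimmer signals were set, since that floor can understate the other 51. Of these 180, miR-29c ranked 15, miR-29b 33 and miR-29a 37 from the highest. The median over the 3 members was 0.29, against a median of 0.00 over all tested miRNAs. These ranks and medians only describe the family, which was picked with the differences in view. let-7a and let-7f, known LIN28A targets, were at 1.12 and 1.17. No siGFP array had either let-7 miRNA well above background, whereas every member of the miR-29 family was measured on all 4 arrays, so its differences are not bounds.

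**Figure D2:**
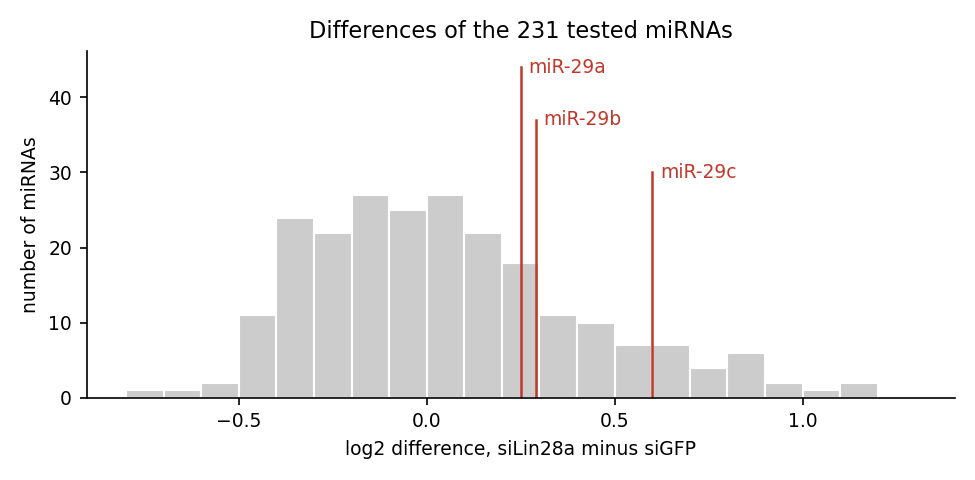
The histogram counts the 231 tested miRNAs by their log2 difference, siLin28a minus siGFP, in steps of 0.1, with a vertical line for each miR-29 member. miR-29a at 0.25 and miR-29b at 0.29 lie close together on the upper flank, and miR-29c at 0.60 lies further out.

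The array holds 2 probes for each member, which differ by 1 base in the length of the stretch they target, with 10 spots per probe and array. The probe targets, given in the files in build mm9, are at chr6:31012673-31012692 for miR-29a, chr1:196863287-196863307 for miR-29b and chr1:196863794-196863815 for miR-29c. The files thus list miR-29b at chromosome 1 alone, although its probes match the same guide from both loci. The targets span 19 and 20 bases for miR-29a, 20 and 21 for miR-29b and 21 and 22 for miR-29c. Each is long enough that the base at position 10, the single one in which miR-29a and miR-29c differ, must lie inside it.

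Both probes of each member showed the same direction and a similar size. For miR-29c the mean spot signals of the 21-base probe were 44.5 and 47.1 with siGFP, against 80.1 and 80.9 with siLin28a, a log2 difference of 0.61 after scaling. Its 22-base probe had 52.2 and 50.4 against 89.9 and 87.6, a log2 difference of 0.59. The pair of miR-29c probes thus differed by far less from each other than the groups did.

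For miR-29b, the 20-base probe had mean spot signals of 34.0 and 29.6 with siGFP and 45.3 and 42.4 with siLin28a, a scaled log2 difference of 0.26. The 21-base probe, which was the brighter of the pair, had 86.0 and 78.0 against 122 and 112, a difference of 0.31. For miR-29a, the 19-base probe had 27.2 and 23.6 against 33.3 and 35.2, a difference of 0.23. The 20-base probe of miR-29a had 47.6 and 43.2 against 61.5 and 64.4, a difference of 0.27. Over the 6 probes the differences ran from 0.23 to 0.61, and in all 6 the groups did not overlap.

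The 19-base probe of miR-29a was the dimmest. Its scaled log2 values of -3.05, -3.22, -2.90 and -2.91 lay just above the floor of -3.40, and no probe of a member was at that floor on any array. The spots of a member's probe varied by 3.84% to 16.2% of their mean (SD over spots) within an array. Of 240 member spots on the 4 arrays, 14 were left out as outliers. 2 of them belonged to the 20-base probe of miR-29b on siGFP replicate 1, where 8 spots remained, and with outlier spots kept the difference of miR-29b was 0.16.

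**Figure D3:**
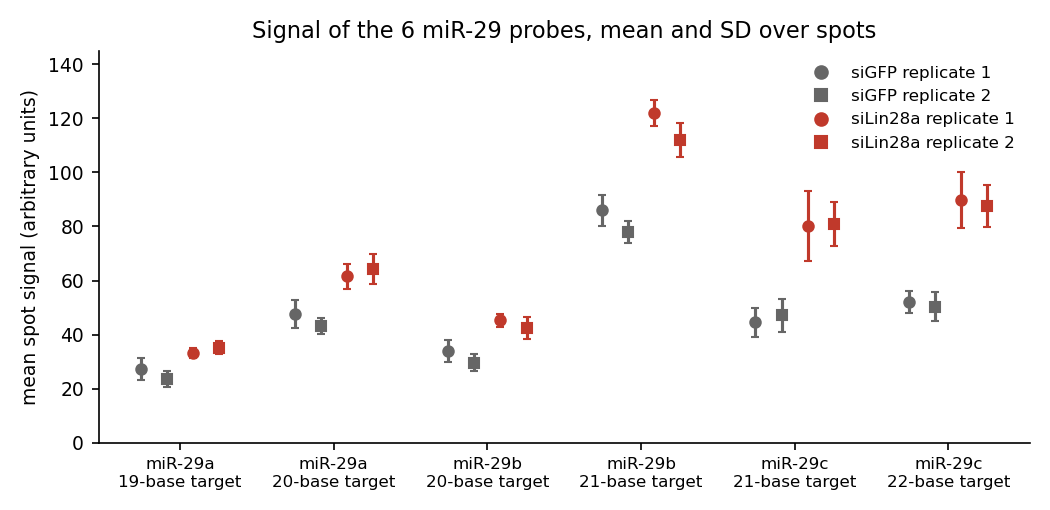
Each point is the mean spot signal of a miR-29 probe on an array, in arbitrary units before scaling, with the SD over its spots as the error bar. The siLin28a points lie above the siGFP points for all 6 probes, and the separation is widest in proportion for both miR-29c probes.

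Since all members share an array, its overall brightness drops out of the difference between members, and the shift between them shows whether they changed to an unequal extent. The log2 distance of miR-29c from miR-29a, set to a mean of 0 with siGFP, was -0.09 and 0.09 for the siGFP replicates, compared with 0.39 and 0.31 for the siLin28a replicates. Its shift was 0.35, without overlap of the groups (SD 0.13 with siGFP and 0.06 with siLin28a, n = 2 per group). miR-29c against miR-29b gave -0.09 and 0.09 with siGFP and 0.26 and 0.36 with siLin28a, a shift of 0.31, again without overlap. miR-29b against miR-29a shifted by 0.04 and the groups overlapped, with 0.13 and -0.05 on the siLin28a arrays. As processed here, miR-29c moved apart from both relatives by more than the replicate spread, while miR-29a and miR-29b were not told apart. The log2 differences of miR-29a and miR-29b, less that of miR-29c, were -0.35 and -0.31 as processed here. With the normexp background correction they shrank to -0.08 and -0.02. The replicate spread under normexp was not computed, so these values are not set against an SD. In that fit the median corrected signal was 130 on siGFP replicate 2, against 66.3 to 68.4 on the other arrays. They were -0.22 and -0.15 with normexp fitted without spot or background outliers.

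These shifts are descriptions without a test. With 2 arrays per group, a two-sided exact permutation test cannot give a p below 0.333. miR-29a and miR-29c differ at 1 base only, and how far the probes of each take up the other's RNA was not tested. The shift between these members therefore has no check for shared signal.

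**Figure D4:**
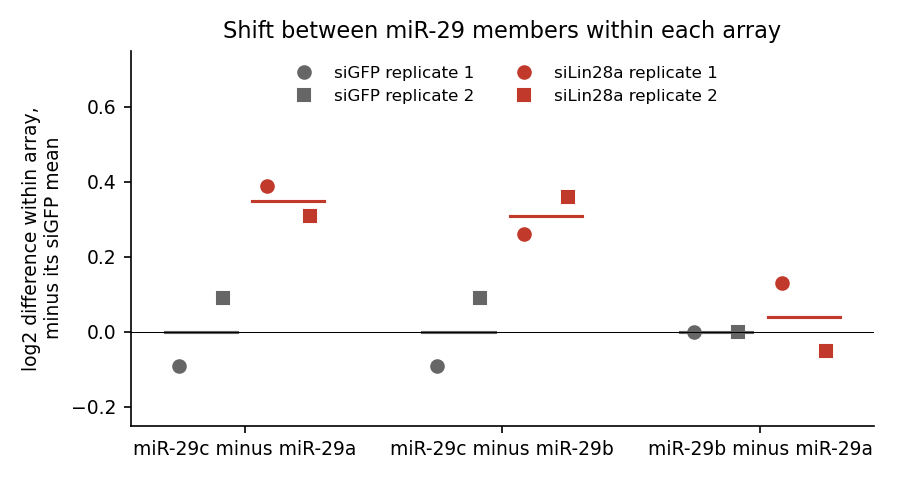
For each pair of members, the difference of their log2 levels within each array is plotted after subtracting its mean over the siGFP arrays; lines are group means. miR-29c against either relative is shifted up on both siLin28a arrays, by 0.35 and 0.31 on average, while miR-29b against miR-29a straddles 0.

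The opposite strands of the hairpins, which are usually degraded once the guide has been loaded, gave no signal. The array holds 3 of them, miR-29a*, miR-29b* and miR-29c*, with 10 probes in all, of which 0 were well above background on any array. Their mean probe signals lay between -3.07 and 2.19, around 0. The total gene signal of miR-29c* was -2.47 and -2.02 with siGFP and -1.16 and 1.36 with siLin28a, and miR-29a* stayed between 0.633 and 1.70. miR-29b*, from the chromosome 6 hairpin by its probe coordinates, was below 0 on all 4 arrays. No difference of an opposite strand was detectable at this signal, and the loci of miR-29b could not be separated through them.

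Among other tested miRNAs, those nearest in pattern to a member were found by the root mean square difference of log2 values over the 4 arrays, each miRNA centred on its mean. Nearest to miR-29a were miR-200a (0.0353), miR-23b (0.0442) and miR-669c (0.0532). miR-29b was the 8th nearest to miR-29a, at 0.0661, and miR-29c the 95th, at 0.189. Nearest to miR-29b were miR-669c (0.0412), miR-429 (0.0512) and miR-200a (0.0585), with miR-29a in place 5 and miR-29c in place 64. Nearest to miR-29c were miR-324-5p (0.0901), miR-500 (0.104) and miR-705 (0.107), with miR-29b in place 21 and miR-29a in place 26. This likeness over 4 arrays describes these samples only.

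Other miRNAs known to target DNA methyltransferases were set beside the family. Of 5 on the list, 4 were tested and 0 were called in either direction. Their median was 0.10, against 0.29 over the miR-29 members and 0.00 over all tested miRNAs. The family was picked with these differences in view, so nothing is read from its higher median. The highest was miR-101a, known to repress DNMT3A and the histone methyltransferase EZH2, at 0.36 (SE 0.14), above miR-29a and miR-29b. miR-148b was at 0.10 (SE 0.11) and miR-148a at -0.12 (SE 0.12), both with overlapping groups. miR-143, at the floor on both siGFP arrays, was at 0.10 (SE 0.03). The groups of miR-101a and miR-143 did not overlap and were higher, as were those of 30.7% of all tested miRNAs. With both siGFP values at the floor, miR-143 could not come out lower. The floor can also understate its difference, and with it the median of the list. miR-152 was not detected on any array.

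Other miRNA families with members at several loci were described by the range of their members' differences. The seeds of these families were not compared here. The range between the lowest and the highest member was 0.35 in the miR-29 family. It was 0.51 over 5 members of the miR-30 family, from -0.07 (SE 0.13) for miR-30b to 0.45 (SE 0.17) for miR-30c. In the miR-101 family it was 0.44, with miR-101a at 0.36 (SE 0.14) and miR-101b at -0.08 (SE 0.15). The miR-26 family had a range of 0.10, with miR-26a at 0.13 (SE 0.08) and miR-26b at 0.02 (SE 0.21), so its members were not told apart. The range of the miR-29 family lay among these. The families differ in their number of members, with which a range tends to grow, and none of these ranges was tested.

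miR-29 is also abundant in fibroblasts, and embryonic stem cells can be grown on such cells as feeders. Of 8 fibroblast markers, miR-29a left out, 7 were on the array and 4 were detected on at least 1 array. miR-145, miR-199a-5p and miR-10b were not detected on any. Their summed total gene signal was 315 to 378 with siGFP and 388 to 420 with siLin28a. Of the 3 tested, miR-21 differed by 0.00 (SE 0.20), miR-31 by -0.35 (SE 0.08) and miR-143, close to the floor, by 0.10 (SE 0.03), with a median of 0.00. miR-31 was at the floor on siLin28a replicate 1, and miR-143 on both siGFP arrays, so the floor limits both differences. The total gene signal of miR-143, unscaled, was 20.3 and 19.1 with siGFP and 35.1 and 37.0 with siLin28a. That of miR-31 was 29.2 and 34.9 with siGFP and 24.9 and 30.8 with siLin28a, with overlapping groups. The part of these cells in the miR-29 differences was not tested.

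Markers of further cell types ranged from not detected to measured on all 4 arrays. The neural marker miR-124 had the highest total gene signals of them, 136 and 163 with siGFP and 146 and 214 with siLin28a. Its scaled difference was 0.03 (SE 0.20), with overlapping groups. Neural markers were detected for 3 of 4, with summed signals of 209 to 255 with siGFP and 244 to 330 with siLin28a, and miR-9 was not detected. Blood markers were detected on at least 1 array for 3 of 5 (101 to 127 against 115 to 162), without miR-223 and miR-451. Endoderm markers were detected for 2 of 3 (12.6 to 18.0 against 21.8 to 35.1), without miR-122, and muscle markers for 0 of 3. The endoderm markers miR-192 and miR-194 and the blood marker miR-142-5p were each detected on 1 array only and were not tested. All these sums are unscaled, and the siLin28a arrays were brighter. The part of these types was not tested either.

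The sizes varied with the processing. miR-29c had the most positive signed difference of the 3 in all 17 settings, the reported one included. Many of these could not change that order. No filter, the median over probes, no variance trend and the replicate block left each member's difference as it was. Scaling over all probes and no scaling moved the 3 members alike. The total gene signal and the authors' deposited table gave the members the same differences. Taking the scaling over all probes, which moved the median of all tested miRNAs to -0.16, gave 0.43 for miR-29c, 0.11 for miR-29b and 0.08 for miR-29a. No scaling moved that median to 0.19 and gave 0.80, 0.49 and 0.45. The normexp background correction gave 0.01 for miR-29c and turned miR-29b and miR-29a to -0.01 and -0.07, so that miR-29a had the largest difference in size there. With no filter on dim probes miR-29c was called, as in no other setting, in a fit where 337 of 577 miRNAs had a residual variance of 0. Nothing is read from that call, since the family was picked with these differences in view.

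**Figure D5:**
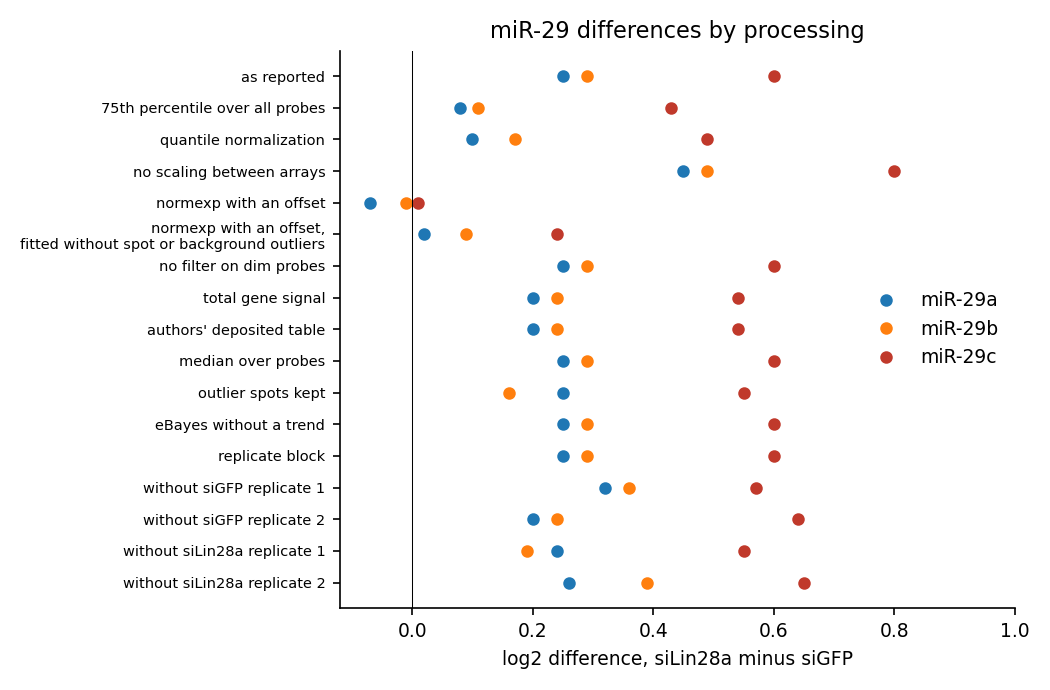
The log2 difference, siLin28a minus siGFP, of each miR-29 member is plotted for the reported processing and each of 16 alternatives. miR-29c lies to the right of both relatives in every setting, though many settings could not change that order, and all 3 shrink towards 0 with the normexp correction.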

How the data were processed

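The values in the deposited scanner files are linear intensities. Per the file headers, Agilent Feature Extraction 9.5.1.1 produced them, while the submitters' processing notes name 9.5.3.1. In these deposited files the processed intensity is the spot mean minus a fitted background and is not scaled between arrays. The authors' deposited table holds the total gene signal, an intensity, with values at or below 0 written as 0.

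Outlier spots (3.21% to 4.32% per array) were left out, and the remaining spots were averaged for each of 1712 probes. Signals were scaled by the array's 75th percentile over the 425 probes well above background (at least 50% of their spots) on all arrays, floored at 0.0948 and taken to log2. The 477 probes that were so on both replicates of at least 1 group were kept and averaged per miRNA. limma 3.58.1 in R 4.3.3 compared the groups (two-sided, with degrees of freedom of 2 residual and 1.64 prior). The fit was tried on simulated data with independent arrays and log2 changes larger than those of the members. It therefore does not show how well differences of the members' size are found.

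The members and lists were chosen with earlier results of these data known. The text names the members, their opposite strands, the 3 nearest miRNAs in pattern, the called miRNAs and up to 3 brightest tested members per list. Other list members were named after their values were seen. Alternatives covered scaling, background, filter, summary, outliers, variance model, replicate block and leaving out each array, and 1 was added after the data were seen.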

Additional observations from a re-analysis of the deposited data

How the results depend on the processing

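Of 16 alternatives, miR-29a and miR-29b kept their direction in 15 and miR-29c in 16, and miR-29c was uncalled in 15. The direction could not change with no filter, the median over probes, no variance trend or the replicate block. The total gene signal and the authors' deposited table gave the members the same differences. With normexp, miR-29a was -0.07, miR-29b -0.01 and miR-29c 0.01 (SE 0.12). The distances of miR-29a and miR-29b from miR-29c fell in size from -0.35 and -0.31 to -0.08 and -0.02, and 0 miRNAs were called higher. On siGFP replicate 2, the lowest spot mean minus local background was -1060 (-8.17 to -5.1 on the other arrays), and the median corrected signal there was 130 against 66.3 to 68.4. With normexp fitted without spot or background outliers, added after the data were seen, it was 65.4, the differences were 0.02 for miR-29a, 0.09 for miR-29b and 0.24 for miR-29c, the distances -0.22 and -0.15, and 0 miRNAs were called higher. The offset of 50 in both narrows differences of dim miRNAs.

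With no filter on dim probes, miR-29c stayed at 0.60 but was called, and 40 miRNAs were called higher and 8 lower, with an infinite prior. The count called higher was 0 with the scaling over all probes, 8 with the total gene signal and 8 with the authors' deposited table. With outlier spots kept, the distance of miR-29a from miR-29b was 0.09, against -0.04 as reported.

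With 1 array left out, the lone array of a group is assumed to vary like the other group. The differences ranged from 0.20 to 0.32 for miR-29a, 0.19 to 0.39 for miR-29b and 0.55 to 0.65 for miR-29c, and the distance of miR-29a was -0.44 to -0.26 from miR-29c and -0.13 to 0.05 from miR-29b, and that of miR-29b from miR-29c -0.41 to -0.22. Calls ranged from 0 to 13 higher (0 without either siGFP array, 13 and 7 without siLin28a replicate 1 and 2) and were 0 lower.

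The labels give both groups replicate numbers 1 and 2 without saying that they pair. Deviations of same-numbered arrays correlated at 0.706 over 231 miRNAs. Between same-numbered arrays, 1 and then 2, miR-29a differed by 0.20 and 0.31, miR-29b by 0.32 and 0.25 and miR-29c by 0.68 and 0.52. With the replicate number as a block 2 miRNAs were called higher and 0 lower. In that fit miR-29a was at 0.25 (SE 0.08), miR-29b at 0.29 (SE 0.09) and miR-29c at 0.60 (SE 0.10), and none of them was called.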
